A study of Mus musculus with 2 samples.

Results

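The 44 genes described here encode effectors that cells switch on when interferon reaches them. They were chosen by name as interferon-stimulated effector genes, and their values in B-Gal positive cells were set against those in B-Gal negative cells. A gene was measured where a probe set of the array named it alone, which held for 39 of the 44 genes and for 19938 genes in all. Isg15, Ifi204, Gbp2 and Igtp shared their probe sets with other genes, and Ifi44 was not named in the annotation used here, so these 5 have no value. Both groups came from healing skin of TCF reporter mice, 1 week after wounding, and the source tissue was labelled as scar. In such mice a transgene is generally taken to mark cells with active TCF factors, the nuclear partners of beta-catenin, and B-Gal is read here as its beta-galactosidase product. The labels name no treatment or allele beyond the reporter. The sources used here do not state how the cells were separated, the promoter behind the reporter, the strain, the age or the number of mice. Each group was hybridised to 1 Affymetrix Mouse Gene ST array, so the differences below carry neither error nor test, and precision is limited by that number.

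Interferons are secreted by cells that detect viral or misplaced nucleic acids, and by activated lymphocytes. Type I and type III interferons act through receptors that send STAT2 and IRF9 to the interferon-stimulated response element of target genes, while interferon gamma acts mainly through the gamma-activated site. The induced genes include sensors of foreign RNA and DNA, proteins that block translation or replication of viruses, the ubiquitin-like modifier ISG15 with its conjugating enzymes, GTPases that act on vacuoles of intracellular microbes, and the peptide supply of MHC class I. Macrophages and monocytes express many of these genes and respond strongly to interferon.

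Values are on a log2 scale, read as such from their range, and a difference is B-Gal positive minus B-Gal negative. Values up to 5.59 were treated as background, a floor below which 95% of readings from 1194 olfactory and vomeronasal receptor genes fell, and 13784 other genes with at least 1 array above it were counted as expressed. All 16 measured macrophage and monocyte markers were higher in B-Gal positive cells, by 2.34 to 6.24, and all 10 fibroblast markers were lower, with differences of -1.91 to -4.64. Over expressed genes 9.92% were at least 2-fold higher and 12.7% lower. Adgre1, a surface antigen of mouse macrophages, read 6.93 in B-Gal negative and 11.67 in B-Gal positive cells, and the fibroblast receptor gene Pdgfra read 11.78 and 7.45. The reporter itself was not checked, because no probe set was annotated to lacZ. In such bulk samples more cells of a type and more RNA per cell cannot be told apart.

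Interferon-stimulated effector genes were for the most part higher in B-Gal positive cells. Of the 39 measured genes, 36 (92.3%) had a higher value there and 3 a lower one, against 53.9% higher among expressed genes. The receptor genes that set the floor had a median difference of 0.28, and 4 of the 36 genes, Ddx58, Ifi35, Xaf1 and Eif2ak2, differed by less than that. All 39 lay above the floor on at least 1 array. By the 2-fold threshold 19 were higher and 1 was lower, with 19 in between. Those counts are 48.7% and 2.56% of the measured members, against 9.92% and 12.7% of expressed genes. The median difference was 0.90 over the members and 0.06 over expressed genes. The quartiles of the members were 0.34 and 1.38, and those of expressed genes -0.41 and 0.44. Trim25, Oasl1, Ifih1, Rsad2 and Epsti1 had the largest positive differences, each over 4-fold. The 6 measured genes of the guanylate-binding and immunity-related GTPase list and of the class I processing list differed by less than 2-fold. Mx1 was the only measured member with an array under the floor, that of B-Gal negative cells. Cmpk2 (1.01) and Sp100 (1.05) lay just inside the 2-fold threshold, and Dtx3l (0.90) and Mx2 (0.89) just outside it. Under loess scaling or an added offset Cmpk2 fell below the threshold, and Sp100 did so under these and under quantile normalization.

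**Figure D1:**
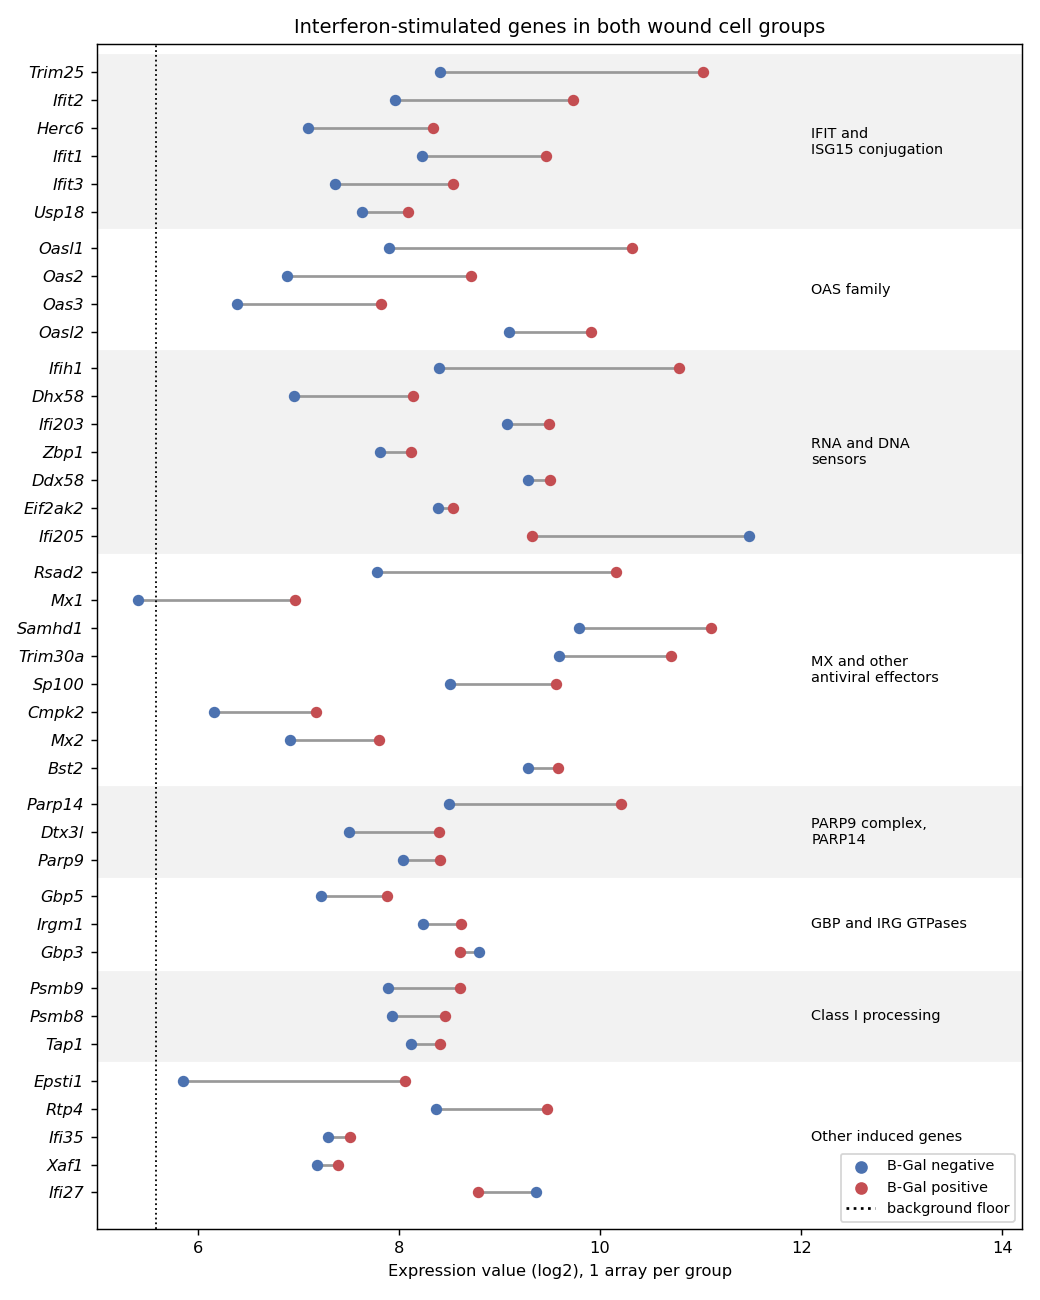
Log2 expression value of each of the 39 measured interferon-stimulated genes in B-Gal negative cells (blue) and B-Gal positive cells (red), 1 array each, grouped by role. The dotted line marks the floor at 5.59. The red point lies to the right of the blue one for 36 genes, and to the left for Ifi205, Ifi27 and Gbp3.

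The members' promoters were searched for the interferon-stimulated response element, since most members differed in the same direction. The core searched was GAAA, any 2 bases, and GAAA again, on either strand, in the 250 bases before each start in the RefSeq promoter table of build GRCm38.p6. Among the 33 members in that table, 14 (42.4%) held at least 1 core, against 3.46% of all 27025 genes in it. Usp18, Oas2, Dhx58, Zbp1, Ifi204, Mx1, Mx2, Parp9, Parp14, Ifi27 and Rtp4 are not in the table and were not searched. The palindromic gamma-activated site, TTCNNNGAA, was found in 7 of the 33 members (21.2%) and in 8.13% of all genes, and in 1 member promoter it lay within 10 bases of a core. The stretches printed first are from 4 members past 2-fold on the B-Gal positive side, with each core in capitals and all sequences 5′ to 3′ on the strand of the gene. They lie at chr12:26456533-26456602 (minus strand) for Rsad2, chr5:120777695-120777764 (minus strand) for Oas3, chr19:34640755-34640843 (plus strand) for Ifit1 and chr19:34583343-34583446 (plus strand) for Ifit3, all before the start of the gene.
Rsad2: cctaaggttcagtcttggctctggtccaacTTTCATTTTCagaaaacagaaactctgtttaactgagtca
Oas3: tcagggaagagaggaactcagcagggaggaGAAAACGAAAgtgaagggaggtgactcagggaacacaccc
Ifit1: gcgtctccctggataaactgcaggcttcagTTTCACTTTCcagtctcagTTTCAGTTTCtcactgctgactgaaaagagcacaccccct
Ifit3: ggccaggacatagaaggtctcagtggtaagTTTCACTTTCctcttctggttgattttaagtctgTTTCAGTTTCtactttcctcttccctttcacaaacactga

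The same core stood in promoters of members that were not higher by 2-fold, of which 4 are printed for comparison. They lie at chr11:48871421-48871480 (minus strand) for Irgm1, chr3:142559969-142560043 (plus strand) for Gbp3, chr1:173942493-173942557 (minus strand) for Ifi203 and chr1:174031850-174031919 (minus strand) for Ifi205. In Irgm1 and Gbp3 a pair of cores overlap, so their capitals run together.
Irgm1: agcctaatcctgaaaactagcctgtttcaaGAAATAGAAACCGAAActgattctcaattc
Gbp3: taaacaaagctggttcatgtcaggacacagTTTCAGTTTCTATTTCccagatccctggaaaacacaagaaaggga
Ifi203: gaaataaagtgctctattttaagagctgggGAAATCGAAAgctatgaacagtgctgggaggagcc
Ifi205: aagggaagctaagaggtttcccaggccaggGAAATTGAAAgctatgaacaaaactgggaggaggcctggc

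Set against each other from the core outwards, 41 of 65 bases of the Ifi203 and Ifi205 stretches were identical, and 9 of the 10 bases of the core. The search itself fixed all core bases but the 2 between the GAAA parts, so only those could differ. The fixed bases count among the 41. Ifi203 differed by 0.42, inside the quartiles of expressed genes (-0.41 and 0.44), and Ifi205 by -2.16. Another RefSeq start of Ifi203 held no core in its window. Whether the shared bases bear on these values was not tested. Over the 29 measured members in the table, the 11 with a core had a median difference of 0.66 and ranged from -2.16 to 2.38. Of those 11, 5 were at least 2-fold higher and 1 was lower. The 18 without a core had a median of 0.96 and ranged from 0.15 to 2.61, and 9 of them were at least 2-fold higher and 0 lower. Over all expressed genes 9.92% were at least 2-fold higher and 12.7% lower. The core in this window was thus present in members on both sides and across the range of differences. A match is a description of letters, and a promoter without one may hold other forms of the element or hold it elsewhere.

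**Figure D2:**
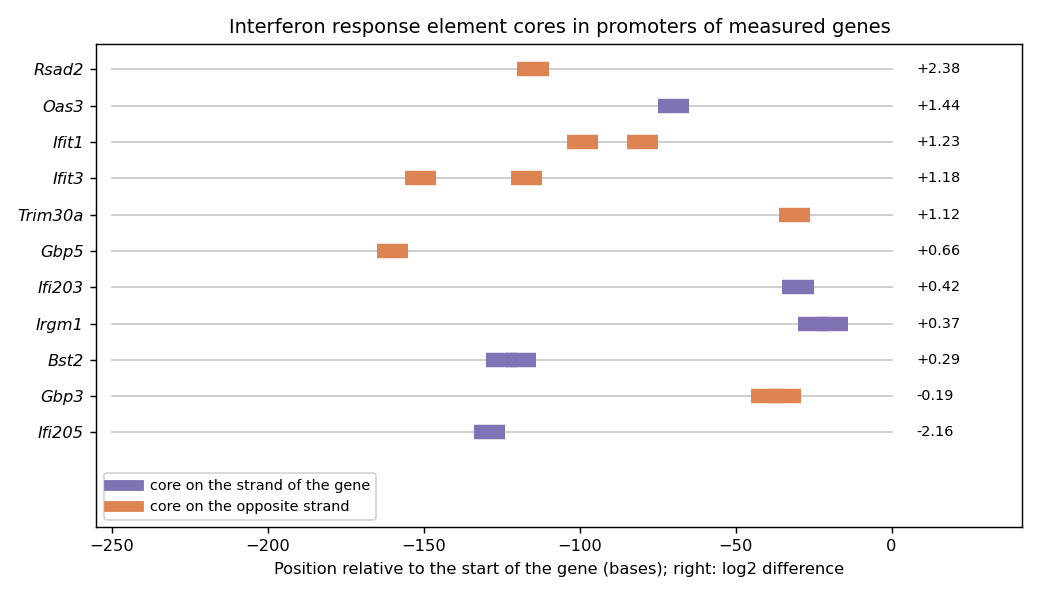
Position of each response element core in the 250 bases before the start of 11 measured members that hold one, with the core's strand by colour and the gene's log2 difference at the right. Genes are ordered by that difference, from 2.38 for Rsad2 to -2.16 for Ifi205. Cores of Rsad2, Oas3, Ifit1 and Ifit3 lie 66 or more bases before the start, and that of Trim30a begins 27 bases before it. In the genes under 2-fold higher, cores lie both near to the start (15 bases, Irgm1) and far from it (165 bases, Gbp5).

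The IFIT genes encode RNA-binding proteins that hold back translation of foreign transcripts. Ifit2 read 7.96 in B-Gal negative and 9.73 in B-Gal positive cells, a 3.40-fold difference. Ifit1 read 8.23 and 9.46 (2.34-fold), and Ifit3, which stabilises the complex of these proteins, read 7.36 and 8.54 (2.26-fold). All 3 were past 2-fold on the B-Gal positive side, Ifit2 by the most. In the RefSeq gene order Ifit2 and Ifit3 are neighbours. Mouse IFIT genes have close paralogues, and signal shared with them was not tested.

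ISG15 is joined to target proteins by ligases and removed by a protease. Trim25, a ubiquitin and ISG15 ligase that acts on the RNA sensor RIG-I, had the largest difference of all measured members, with 8.41 in B-Gal negative and 11.02 in B-Gal positive cells (6.12-fold). Herc6, the principal ISG15 ligase of the mouse, read 7.10 and 8.34 (2.36-fold). Usp18, the protease that removes ISG15 and also dampens signalling at the type I receptor, read 7.63 and 8.09, a difference of 0.46 that stayed under 2-fold. Of the 6 measured genes of the IFIT and ISG15 group 5 were past 2-fold upwards and 0 downwards. Over expressed genes these shares were 9.92% and 12.7%. The group's median difference was 1.24.

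Oligoadenylate synthetases make the second messenger that activates RNase L, which degrades RNA, and the OASL proteins are their relatives. Oas2 read 6.89 in B-Gal negative and 8.72 in B-Gal positive cells (3.57-fold), and its neighbour Oas3 read 6.39 and 7.82 (2.71-fold). Oasl1, known to restrain translation of Irf7, read 7.90 and 10.32 (5.36-fold). Oasl2 read 9.09 and 9.91 (1.76-fold), below the threshold. Oasl1 and Oasl2 are neighbours too, yet their differences lay 1.61 apart, the widest gap of the 8 adjacent pairs among the members. The group's median difference was 1.64, with 3 of 4 at least 2-fold higher, beside 9.92% of expressed genes.

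Among the role groups of the members, sensors of nucleic acids had the widest range, from 2.38 to -2.16. Ifih1, which encodes the long double-stranded RNA sensor MDA5, read 8.40 in B-Gal negative and 10.79 in B-Gal positive cells (5.22-fold). Dhx58, which encodes the related LGP2, read 6.96 and 8.15 (2.28-fold). Ddx58, which encodes RIG-I, the third receptor of this family, read 9.29 and 9.50, a difference of 0.21. The members of the RIG-I-like family therefore had unequal differences, with Ifih1 highest.

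Eif2ak2 encodes PKR, the kinase that stops translation on binding double-stranded RNA, and read 8.39 in B-Gal negative and 8.54 in B-Gal positive cells (0.15). Zbp1, a sensor of Z-form nucleic acids that can trigger necroptosis, read 7.82 and 8.12 (0.31). Ifi203 and Ifi205 belong to the mouse family of interferon-inducible genes with DNA-binding HIN domains. Ifi203 read 9.07 and 9.50 (0.42), while Ifi205 read 11.48 and 9.32, a 4.47-fold lower value in B-Gal positive cells. Ifi205 was the only measured member at least 2-fold lower. This gene family has close copies in the mouse genome, so a part of either signal could come from relatives, which was not tested.

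Among other antiviral effectors, 6 of 8 were past 2-fold upwards and 0 downwards, beside 9.92% and 12.7% of expressed genes. The median difference was 1.09. Rsad2 encodes viperin, which makes a chain-terminating nucleotide, and read 7.78 in B-Gal negative and 10.16 in B-Gal positive cells (5.21-fold). Cmpk2, the neighbouring gene, encodes a mitochondrial nucleotide kinase and read 6.17 and 7.18 (2.01-fold). Samhd1, which depletes deoxynucleotides and is abundant in myeloid cells, read 9.79 and 11.11 (2.49-fold). Cmpk2 lay nearest the threshold of these 3 genes.

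The MX genes encode dynamin-like GTPases that trap viral components. Mx1 read 5.41 in B-Gal negative cells, under the floor, and 6.97 in B-Gal positive cells, which against the floor is at least 2.61-fold higher. Mx2 read 6.91 and 7.80 (1.85-fold). Many inbred laboratory strains carry a defective Mx1, and the strain is not given here. Trim30a, a ligase known to limit Toll-like receptor signalling, read 9.59 and 10.71 (2.18-fold), and the nuclear body gene Sp100 read 8.51 and 9.56 (2.07-fold). Bst2, which encodes tetherin, a membrane anchor for budding virions, read 9.29 and 9.58, a difference of 0.29.

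PARP9 and DTX3L form a complex that ADP-ribosylates and ubiquitinates proteins, and Parp14 encodes a further ADP-ribosyltransferase known in macrophage activation. Parp14, Dtx3l and Parp9 lie next to each other in this order. Parp14 read 8.50 in B-Gal negative and 10.21 in B-Gal positive cells (3.29-fold). Dtx3l read 7.50 and 8.40 (1.87-fold), and Parp9 read 8.05 and 8.41 (1.29-fold). The difference thus stepped down along the row of genes, from 1.72 to 0.90 to 0.37.

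Guanylate-binding proteins and immunity-related GTPases attack vacuoles that shelter microbes and are known as strong targets of interferon gamma. Gbp5 read 7.23 in B-Gal negative and 7.89 in B-Gal positive cells (0.66), Irgm1 read 8.25 and 8.62 (0.37), and Gbp3 read 8.80 and 8.61 (-0.19). None of the 3 measured genes passed 2-fold in either direction, beside 9.92% of expressed genes higher and 12.7% lower. Class I processing genes were likewise close between the arrays. Tap1, a subunit of the peptide transporter into the endoplasmic reticulum, read 8.12 and 8.41 (0.29). The immunoproteasome subunit genes Psmb8 and Psmb9 differed by 0.53 and 0.71, with values of 7.93 and 8.46 for Psmb8 and of 7.89 and 8.61 for Psmb9. These 3 genes are neighbours, and the promoter windows of Tap1 and Psmb9, which point away from each other, overlap.

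The remaining members have varied or less settled roles. Epsti1 read 5.85 in B-Gal negative and 8.06 in B-Gal positive cells (4.63-fold). Rtp4, a chaperone-like gene of receptor transport, read 8.37 and 9.47 (2.16-fold). Both were at least 2-fold higher, Rtp4 with a difference of 1.11 near the threshold, and the other 3 of the group stayed under 2-fold. Xaf1, named for its interaction with the apoptosis inhibitor XIAP, differed by 0.21, and so did Ifi35, whose protein binds that of Nmi (0.22, outside the members). Ifi27 read 9.37 and 8.79, a difference of -0.58.

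Other genes of the interferon pathway were taken from lists of 129 genes in 9 groups, and 99 of them were above the floor. Of these, 29 were at least 2-fold higher and 2 lower, beside 9.92% and 12.7% of expressed genes. Ligand genes gave little signal. Of 16 measured ligand genes 8 were at or under the floor on both arrays, and only Ifna5, Ifna9, Ifnz and Ifnl2 were above it on both. Ifnb1, which encodes interferon beta, read 4.24 in B-Gal negative cells, under the floor, and 6.10 in B-Gal positive cells, at least 1.43-fold higher. Ifng, which encodes interferon gamma, read 6.06 in B-Gal negative cells and 5.01, under the floor, in B-Gal positive cells, at least 1.39-fold lower. On deposited values these were the 2 ligand genes past 2-fold, and against the floor neither was.

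Receptor genes were higher in B-Gal positive cells for 6 of 6, beside 53.9% of expressed genes, with a median difference of 0.89. The type I receptor genes Ifnar1 and Ifnar2 differed by 0.51 and 0.93, and the interferon gamma receptor genes Ifngr1 and Ifngr2 by 1.17 and 0.85. Il10rb, a chain shared by the receptors of type III interferons and of interleukin 10, read 9.71 in B-Gal negative and 11.86 in B-Gal positive cells (4.46-fold). Ifnlr1, the chain particular to type III interferons, read 4.99 and 5.63, the latter just above the floor. So Il10rb and Ifngr1 were past 2-fold among the receptors, 33.3% of the 6, beside 9.92% of expressed genes.

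Signal transducer genes differed little. The kinase genes Jak1, Jak2 and Tyk2 read 10.98 on both arrays, differed by -0.35 and differed by 0.73 respectively, and Stat2 and Irf9, which act at the response element, differed by 0.32 and 0.36. None of the 5 measured was past 2-fold, beside 9.92% of expressed genes higher and 12.7% lower. Interferon regulatory factors were higher by 2-fold for 4 of 7, beside 9.92% of expressed genes. Irf5, a myeloid factor downstream of Toll-like receptors, read 6.81 in B-Gal negative and 9.63 in B-Gal positive cells (7.02-fold), and Irf8, a myeloid lineage factor, 7.72 and 9.60 (3.68-fold). Irf2, a repressor of many of these targets, and Irf7, the amplifier of type I interferon, differed by 1.34 and 1.31. Irf4, Irf3 and Irf1 differed by 0.52, 0.35 and -0.06.

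Upstream receptors and adaptors were at least 2-fold higher for 7 of 14 and lower for 0, beside 9.92% and 12.7% of expressed genes. The RNA receptor genes Tlr7 and Tlr8 were at least 22.9-fold and at least 20.5-fold higher, with B-Gal negative readings below the floor. Unc93b1, the escort of these receptors to endosomes, was 7.57-fold higher, the adaptor gene Ticam2 5.28-fold and the DNA receptor gene Tlr9 4.50-fold. The kinase genes Ikbke and Tbk1, which activate IRF3, differed by 1.37 and 1.26. Mavs, the adaptor that relays signals from MDA5 and RIG-I, differed by 0.74, the DNA sensor gene Cgas by 0.60 and Sting1, downstream of it, by -0.45.

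Negative regulators had differences of both signs, and 3 of 9 were past 2-fold upwards and 0 downwards. Over expressed genes these shares were 9.92% and 12.7%. Ptpn6, a phosphatase of blood cells, was 4.82-fold higher, and Ptpn1 and the DNase gene Trex1 differed by 1.25 and 1.07. Socs1, the feedback inhibitor of JAK kinases, read 7.62 in B-Gal negative and 6.81 in B-Gal positive cells (-0.81), and Socs3 differed by -0.20.

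Of 36 interferon-induced genes outside the members and above the floor 12 were at least 2-fold higher and 1 was lower. Over expressed genes these shares were 9.92% and 12.7%. The median difference of the 36 genes was 0.48, against 0.90 over the members. Their differences ran from -1.74 to 2.39, and those of the members from -2.16 to 2.61. No test of the gap between the medians was possible with 1 array per group. Trim14, a relay of antiviral signalling, was 5.22-fold higher, Slfn2 5.11-fold, the cytosolic DNA sensor gene Aim2 4.12-fold, and Ifi30, a lysosomal thiol reductase gene, 3.90-fold. The RNA helicase gene Znfx1 was 3.13-fold higher. Cxcl10, a chemokine gene of the interferon response, read 11.04 and 12.50 (2.76-fold). Further genes at least 2-fold higher were Ifitm6 (1.39), Oas1a (1.24), Ifi27l2a (1.22), Slfn8 (1.18), Gbp9 (1.08) and Apobec3 (1.08).

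Iigp1 was the only gene of this list at least 2-fold lower, and the further genes of this paragraph were chosen after their values were seen. The GTPase gene Iigp1 read 8.22 in B-Gal negative and 6.48 in B-Gal positive cells, 3.35-fold lower, and the chemokine gene Cxcl9 read 7.36 and 6.39 (-0.97). Gbp4 differed by -0.27, beside -0.19 for the member Gbp3. Gbp7, Gbp8 and Gbp9 of the same family had positive differences of 0.40, 0.53 and 1.08, so the family was not of 1 direction. The IFITM genes of the widely expressed kind, Ifitm1, Ifitm2 and Ifitm3, which block viral entry at membranes, differed by -0.04, -0.07 and -0.26.

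Class I presentation genes outside the members differed by less than 2-fold for 11 of 11, with a median of 0.37. Most expressed genes did so too, with 9.92% at least 2-fold higher and 12.7% lower. They included Erap1 (0.78), Psmb10 (0.58), the third immunoproteasome subunit, B2m (0.54), the light chain of class I, and Psme1 (0.49). The constitutive proteasome subunits that the immunoproteasome replaces, Psmb5, Psmb6 and Psmb7, differed by -0.08, 0.33 and 0.03. The immunoproteasome members and Psmb10, from 0.53 to 0.71, thus lay above all 3 constitutive ones, and by less than 1 on the log2 scale.

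**Figure D3:**
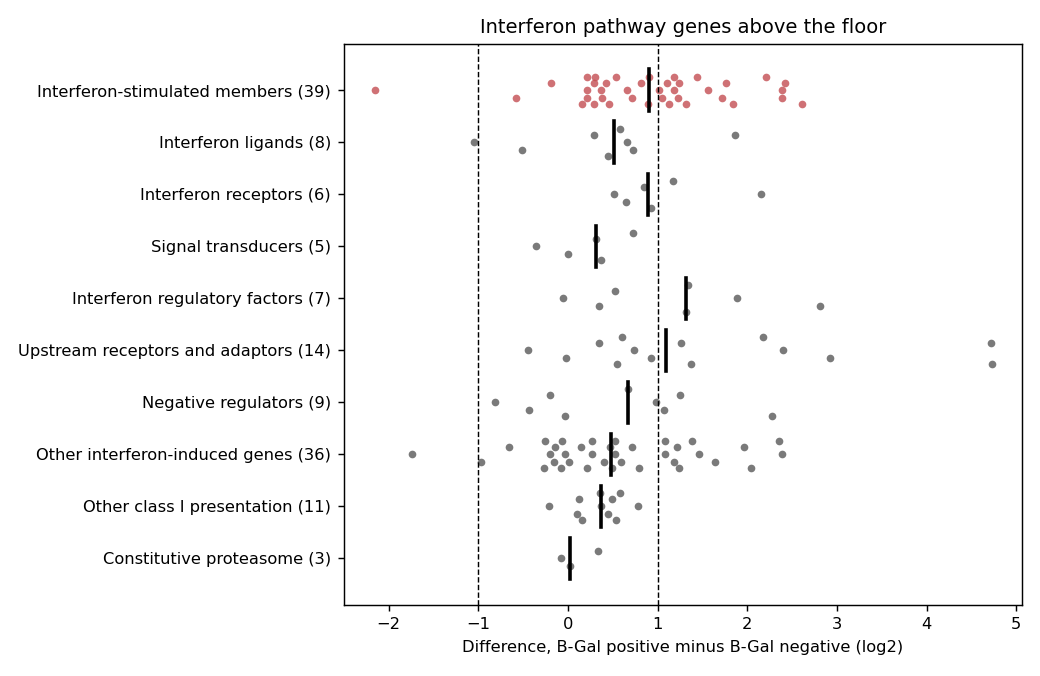
Log2 difference, B-Gal positive minus B-Gal negative, of each gene above the floor, in the 39 members (red) and 9 other interferon pathway lists (grey), with the number of genes in brackets. Black bars are medians and dashed lines mark 2-fold. Points of upstream receptors and adaptors reach 4.73, while class I presentation and signal transducer genes lie between the dashed lines.

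The member differences were smaller than those of macrophage markers in the same arrays. Of the 39 members, 4 exceeded the smallest macrophage marker difference (2.34, Ccr2), namely Trim25, Oasl1, Ifih1 and Rsad2, and 0 exceeded the macrophage median of 3.53. The summed linear signal of the 16 macrophage markers was 4970 in B-Gal negative and 59800 in B-Gal positive cells, and that of the 39 members was 14300 and 25100. Pan-leukocyte markers were at least 2-fold higher for 10 of 10, beside 9.92% of expressed genes. Their summed signals were 6010 and 31400, and 8 members exceeded their smallest difference of 1.71. Lists of several other cell types went the opposite way. Fibroblast markers summed to 89800 and 15500. By the 2-fold threshold 7 of 7 mast cell markers were lower (median -3.05), 5 of 6 mural cell markers (-2.65), 7 of 8 endothelial markers (-1.89), 4 of 7 neutrophil markers (-1.79) and 3 of 6 keratinocyte markers (-0.68). Over expressed genes the share at least 2-fold lower was 12.7%. Conventional dendritic and B cell lists did not go that way. Of 6 conventional dendritic cell markers above the floor 1 was at least 2-fold higher (Itgax, 4.75-fold) and 0 lower, with a median of -0.19. That is 16.7% higher, beside 9.92% of expressed genes. Cd79b, the only B cell marker above the floor, was 2.27-fold higher. The part of these cell types in the member differences was not tested.

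Plasmacytoid dendritic cells are a known source of type I interferon, and 3 of their 7 measured markers, Siglech, Spib and Ccr9, were at or under the floor on both arrays. Siglech, their defining receptor gene, read 5.57 and 5.26. Tcf4, with 10.06 in B-Gal negative and 10.04 in B-Gal positive cells, and Ly6d, with 6.60 and 6.19, were above the floor on both. Irf7 (2.49-fold higher) was the only marker of the list past 2-fold. The summed signal of this list was 2240 in B-Gal negative and 2820 in B-Gal positive cells. That sum includes Tcf4, and Bst2 and Irf7, which other cells also induce. T and NK cells are the usual source of interferon gamma, and 5 of 5 of their markers above the floor were on the lower side in B-Gal positive cells. Among expressed genes 6275 of 13784 were. By the 2-fold threshold 3 of the 5 were lower, beside 12.7% of expressed genes. Of these 3, Ncr1 read 5.63 in B-Gal negative cells, and against the floor it was at least 1.03-fold lower. Over all 7 measured markers the summed signals were 732 and 268. In B-Gal positive cells 5 of the 7 were at or under the floor, so the latter sum includes background readings. Ifng was lower on the same array, and the part of these cells in its value was not tested.

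**Figure D4:**
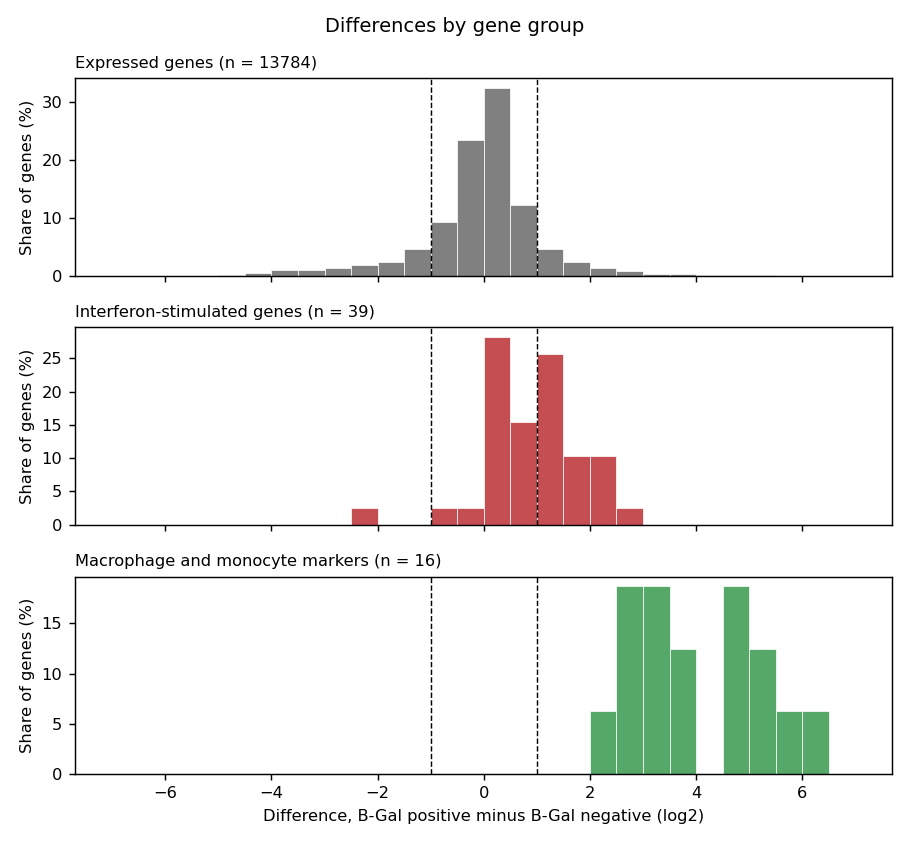
Share of genes (%) by log2 difference in bins of 0.5, for 13784 expressed genes, 39 interferon-stimulated genes and 16 macrophage and monocyte markers. Dashed lines mark 2-fold. The interferon-stimulated genes centre at a median of 0.90, between 0.06 for expressed genes and 3.53 for macrophage markers, with Ifi205 alone below the lower line.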

How the data were processed

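Expression was measured in wound cells with and without B-Gal, 1 array each. The deposited table holds 1 log2 value per probe set, made with Partek, per the submitters' processing notes. Summarization, normalization and log base: not given in the sources used here. Judging by the range, values are log2, running from 1.16 to 14.8. Folds depend on that reading. No scaling was added.

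Of 28853 probe sets, 21789 named 1 gene in the platform annotation, 1621 several and 5443 were unlisted. Current symbols came from a RefSeq table of GRCm38.p6, through gene IDs (21698 matched). Of several probe sets the one with the highest mean was used. Where 1 array lay under the floor, the floor replaced its value and the fold is a lower bound.

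The members, lists, named genes and threshold were chosen with earlier results of these data known. Named were all members, and of each pathway list those past 2-fold and up to 4 with the largest differences, besides Ifnb1, Ifng, label-check markers and all receptors, transducers and regulatory factors. Genes named beyond these were chosen after their values were seen. No test is possible with 1 array per group. Alternatives were median centring, loess (span 0.4, 3 iterations), quantile normalization, an offset of 32, other floors and filters, the mean over probe sets, and 1.5-fold and 4-fold thresholds. The code, in Python 3.11.15, was tested on simulated data.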

Additional observations from a re-analysis of the deposited data

How the results depend on the processing

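All 39 measured members kept the sign of their difference under each of the 9 alternative scalings, offsets, filters and probe set rules run. The count of members at least 2-fold higher was 17 with loess or the offset, 18 with quantile normalization and 19 under the others. The members below 2-fold in those settings were Cmpk2 (0.94 with loess, 0.77 with the offset) and Sp100 (0.98 with loess, 0.99 with quantile normalization or the offset). Ifi205 remained the only member at least 2-fold lower. The median difference of members was 0.90, and 0.78 with the offset. At 4-fold 5 members were higher, and at 1.5-fold 24 were. The expressed genes at least 2-fold higher or lower numbered 3121, with 5350 at 1.5-fold and 1203 at 4-fold. The pathway lists held 31 such genes, with 49 at 1.5-fold and 11 at 4-fold. The median over expressed genes was 0.06, and -0.04 with loess.

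No paired analysis was possible because each group has 1 array. No replicate was left out, for the same reason. The floor limits low values such as those of Mx1, Ifnb1 and Ifng.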

Other observations

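The response element core was also present before the start of expressed genes that are not members. Of 335 such genes 53 (15.8%) were past 2-fold upwards in B-Gal positive cells and 36 (10.7%) past 2-fold downwards. Among the 10550 expressed genes whose promoters lacked the core, 9.80% were higher and 11.9% lower. Unlike the 335, these include members, namely the 18 measured ones without a core. The medians were 0.13 and 0.06, and no test of this gap was possible.

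The genes named here were chosen after their values were seen, among those with a core and large differences. Fcgr4, an activating receptor for IgG, read 6.43 in B-Gal negative and 9.69 in B-Gal positive cells (9.54-fold). Cybb and Ncf1, which encode subunits of the phagocyte NADPH oxidase, were 9.13-fold and 6.34-fold higher, and the lysosomal protease gene Ctss was 5.08-fold higher. Ddx60, a helicase gene of the antiviral response, read 6.67 and 9.15 (5.58-fold). Ifi213, of the same family as Ifi203 and Ifi205, was at least 1.86-fold higher, its B-Gal negative reading being below the floor. On the other side were Mfap2, a microfibril gene (11.6-fold lower), and Ebf1, a transcription factor gene (15.8-fold lower). These genes were taken from both ends of the range, so their directions follow from that choice.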
